A study of Mus musculus with 6 samples.

Results

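Adenylate cyclases (Adcy) make the cyclic nucleotide cAMP, and cyclic nucleotide phosphodiesterases (Pde) break down cAMP, cGMP or both. The genes described here belong to these families by name. They were taken by name and gene type from a table of 54532 genes, as protein-coding genes named Adcy with a number or Pde with a number and a letter from a to d, with Pde10a left out. The rule gave 31 genes, 10 cyclases and 21 phosphodiesterases. The tissue was cerebral cortex, dissected at an age of 12 months from wild-type mice (WT, 3 libraries) and from mice labelled as Fam69c-/- knockout (KO, 3 libraries). The labels name no other allele, treatment, strain or sex, and do not say how the knockout was made. Whether the libraries stem from different animals is not stated either, so every test below measures the spread between these libraries, which may be technical.

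Adenylate cyclases turn ATP into cAMP when receptors act through stimulatory G proteins, and single forms are further tuned by calcium, inhibitory G proteins or G protein beta-gamma subunits. Phosphodiesterases end the signal by hydrolysing cAMP, cGMP or both. In cortical neurons cAMP acts through protein kinase A, the exchange factors Epac and cyclic nucleotide-gated channels, and it is known for its part in synaptic plasticity, while the striatum below the cortex is known for strong cAMP signalling downstream of dopamine and adenosine receptors.

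Library depth, recovered from the values, ran from 30935326 to 35065884 reads. Fam69c itself had a mean FPKM of 1.89 ± 0.285 in WT and 1.60 ± 0.216 in KO (both SD, n = 3), so its RNA does not check the genotype, and KO stands for the label throughout. FPKM are reads per kilobase of gene length and per unit of sequencing depth, and they allow a rough comparison of levels between genes. For 29 of the 31 members the length was that of all exons in GENCODE M21 together. A gene whose RNA leaves out some of these exons therefore reads too low. One pattern touches several results below. WT replicate 3 and KO replicate 1 held far less RNA of striatal projection neuron genes than the other 4 libraries. All 10 genes of that list were lowest in these 2 libraries, none was at 0, and their summed level was 100.7 and 142.8 FPKM there, against 243 to 301 FPKM in the other 4. In WT the sum ranged from 100.7 to 301 FPKM, and in KO from 142.8 to 280 FPKM. Excitatory neuron markers (5 of 5 measured) summed to 798 to 842 FPKM in WT and 798 to 832 FPKM in KO. In such bulk RNA, fewer cells of a type and less RNA per cell cannot be told apart.

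Promoters are shown for 3 of the genes on which the results turn: Adcy1, the most abundant member, and Adcy5 and Pde1b, which varied together between libraries. RefSeq promoters on GRCm38.p6, the same coordinates as mm10, were matched by symbol for 23 of the 31 genes, as 46 start sites. The 250 bases before the start are printed 5′ to 3′ on the strand of the gene, with the GC box GGGCGG, or its complement CCGCCC, in capitals. They lie at chr11:7063183-7063432 for Adcy1, chr16:35154614-35154863 for Adcy5 and chr15:103502784-103503033 for Pde1b, all on the plus strand.
Adcy1: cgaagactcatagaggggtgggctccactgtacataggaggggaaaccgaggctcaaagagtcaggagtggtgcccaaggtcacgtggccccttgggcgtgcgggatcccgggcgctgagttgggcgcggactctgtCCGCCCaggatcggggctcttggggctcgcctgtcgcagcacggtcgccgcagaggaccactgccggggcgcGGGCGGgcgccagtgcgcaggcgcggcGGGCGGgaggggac
Adcy5: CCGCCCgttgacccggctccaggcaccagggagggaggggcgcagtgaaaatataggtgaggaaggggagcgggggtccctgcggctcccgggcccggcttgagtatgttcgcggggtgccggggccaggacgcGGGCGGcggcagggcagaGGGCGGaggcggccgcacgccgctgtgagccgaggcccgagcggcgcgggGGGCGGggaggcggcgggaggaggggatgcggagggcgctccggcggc
Pde1b: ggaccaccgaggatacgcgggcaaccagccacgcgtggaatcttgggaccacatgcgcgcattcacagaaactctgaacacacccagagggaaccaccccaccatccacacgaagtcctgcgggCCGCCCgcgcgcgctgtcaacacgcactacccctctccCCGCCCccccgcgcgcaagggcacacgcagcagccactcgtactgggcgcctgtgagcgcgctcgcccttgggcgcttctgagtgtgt
The stretch held 3 GC boxes in Adcy1, 4 in Adcy5 and 2 in Pde1b, and 26, 32 and 26 CG dinucleotides against a median of 6 over all 32851 promoters of the same length. Over the 46 start sites of the members the median was also 6. Pde1b had other start sites, not printed here, whose stretches held 0 GC boxes and 0 and 1 CG dinucleotides. The GC box was found in 15 of these 46 stretches (32.6%) and in 32.7% of all. The full cAMP response element TGACGTCA, the palindrome bound by CREB, was in 0 of the 46 and in 1.55% of all. The shorter motif TGACG, searched on both strands and contained in the full element, was in 6 of the 46 (13.0%), in promoters of Adcy7, Adcy9, Pde1a, Pde4a, Pde4b and Pde8a, and in 17.8% of all. These are matches of letters in a short window and say nothing of binding.

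Among the cyclases, RNA of Adcy1 was the most abundant. Adcy1 (ENSMUSG00000020431, mm10 chromosome 11, 7063489 to 7178506, plus strand), a neuronal cyclase stimulated by calcium and calmodulin, read 85.6, 85.3 and 91.6 FPKM in WT and 91.2, 84.2 and 84.4 FPKM in KO. It supplied 37.8 to 45.5% of the summed FPKM of the 10 cyclases. The 6 values lay close together and the groups overlapped, with a log2 fold change (KO minus WT, on the log2(FPKM + 0.5) scale) of -0.015 and a 95% interval from -0.15 to 0.12. The other calcium-stimulated forms were far lower: Adcy3 read 8.58 to 9.95 FPKM and Adcy8 2.70 to 3.99 FPKM.

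**Figure D1:**
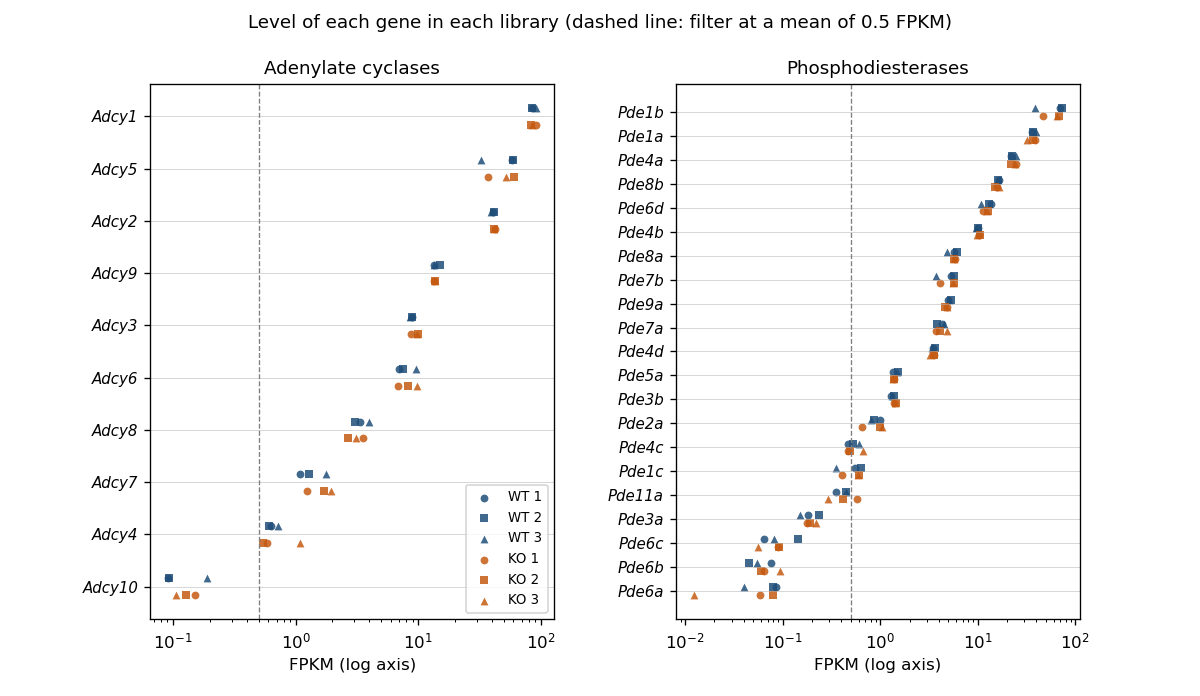
Level of each gene in each library, in FPKM on a log axis, ordered by mean within the cyclases (left) and the phosphodiesterases (right). Blue marks are WT and orange marks are KO libraries, with a shape for each replicate number. The dashed line marks the filter of 0.5 FPKM on the mean. Adcy1 and Pde1b lead the 2 families, and Pde6a, Pde6b and Pde6c lie below 0.2 FPKM throughout.

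Adcy5, a cyclase inhibited by calcium and by inhibitory G proteins and known as the main form of striatal projection neurons, ranked second (ENSMUSG00000022840, chromosome 16, 35154877 to 35305738, plus strand). It read 58.7, 59.2 and 32.3 FPKM in WT and 37.0, 60.2 and 52.0 FPKM in KO. WT replicate 3 and KO replicate 1 were the low libraries, each in its own group, and the groups overlapped. Adcy2, a form stimulated by G protein beta-gamma subunits, read 40.6, 41.3 and 39.1 FPKM in WT and 42.6, 41.4 and 41.6 FPKM in KO (chromosome 13, 68620043 to 68999541, minus strand). The order of the pair was not the same in all libraries. Adcy5 stood at 1.25 to 1.45 times Adcy2 in 4 libraries and at 0.83 and 0.87 times Adcy2 in WT replicate 3 and KO replicate 1.

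Adcy9, a broadly expressed cyclase, read 13.5 to 15.0 FPKM. Adcy6, the closest relative of Adcy5, read 6.98, 7.53 and 9.62 FPKM in WT and 6.83, 8.24 and 9.76 FPKM in KO. It was highest in WT replicate 3, where Adcy5 was lowest, and in KO replicate 3. Adcy7, which is known from microglia and other immune cells and is stimulated by beta-gamma subunits, read 1.08, 1.28 and 1.76 FPKM in WT and 1.24, 1.71 and 1.96 FPKM in KO. Adcy4, known from the vascular endothelium, read 0.630, 0.607 and 0.716 FPKM in WT and 0.581, 0.546 and 1.09 FPKM in KO, where replicate 3 alone stood above 0.72 FPKM. Endothelium markers (5 of 5 measured, none at 0) summed to 51.1 to 58.6 FPKM in WT and 51.5 to 59.5 FPKM in KO. Mural cell markers (5 of 5 measured, none at 0) summed to 20.6 to 23.5 and 19.9 to 24.1 FPKM, with WT replicate 3 and KO replicate 3 the 2 highest libraries. Taken singly, 3 of the 5 mural markers had these as their 2 highest libraries, and Rgs5 and Tagln did not. The same held for 1 of the 5 endothelium markers, 0 of the 5 microglia markers and 13.8% of all tested genes. Microglia markers (5 of 5 measured, none at 0) summed to 63.2 to 75.0 and 63.8 to 71.2 FPKM. The part of these cells in the levels of Adcy4, Adcy6 and Adcy7 was not tested. The soluble cyclase Adcy10, which responds to bicarbonate, lay below the filter at 0.0916 to 0.190 FPKM, from 25 to 55 reads.

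Among the 21 phosphodiesterases counted here, the calcium- and calmodulin-activated Pde1 family held the largest part of summed FPKM. Pde10a is not among them, and the level of Pde2a is uncertain, as described below. Pde1b, which hydrolyses both nucleotides and is known for its abundance in the striatum (ENSMUSG00000022489, chromosome 15, 103503034 to 103530052, plus strand), read 69.9, 72.5 and 38.6 FPKM in WT and 46.3, 67.7 and 64.4 FPKM in KO. Its low libraries were the low libraries of Adcy5. Pde1a, its relative, read 35.7, 37.1 and 39.4 FPKM in WT and 38.9, 37.0 and 31.9 FPKM in KO. Pde1a was highest in the 2 libraries where Pde1b was lowest. Pde1b thus stood at 1.83 to 2.02 times Pde1a in 4 libraries, at 0.98 times in WT replicate 3 and at 1.19 times in KO replicate 1. Pde1c read 0.549, 0.641 and 0.356 FPKM in WT and 0.410, 0.610 and 0.586 FPKM in KO, with the same 2 libraries lowest.

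The cAMP-specific families Pde4, Pde7 and Pde8 were led by Pde4a, a target of rolipram, at 21.9 to 24.7 FPKM, followed by Pde8b at 15.0 to 16.6 FPKM. Pde4b, another rolipram target, read 9.68 to 10.6 FPKM, Pde8a 4.83 to 6.17 FPKM, Pde7a 3.75 to 4.82 FPKM and Pde4d 3.27 to 3.69 FPKM. Pde4c was the lowest of the 8, at 0.464 to 0.674 FPKM. Pde7b, which is known from the striatum, read 5.34, 5.73 and 3.72 FPKM in WT and 4.14, 5.67 and 5.55 FPKM in KO, again lowest in WT replicate 3 and KO replicate 1. Summed over the 8 genes, the libraries lay between 67.1 and 70.7 FPKM.

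The cGMP-specific enzymes Pde5a, Pde6a, Pde6b, Pde6c and Pde9a together summed to 6.20 to 7.15 FPKM per library. Pde9a, which has a high affinity for cGMP (chromosome 17, 31386234 to 31476310, plus strand), read 4.92, 5.35 and 5.09 FPKM in WT and 4.89, 4.58 and 4.89 FPKM in KO. Pde5a, the target of sildenafil, read 1.34 to 1.53 FPKM. Pde6a, Pde6b and Pde6c, catalytic subunits of the photoreceptor enzyme, read at most 0.143 FPKM, from 2 to 17 reads. Photoreceptor markers (4 of 4 in the table, none at 0 in all libraries) summed to at most 0.809 FPKM. Pde6d, a subunit without catalytic activity that carries lipid-modified proteins between membranes, was the exception of that name at 10.8 to 13.7 FPKM.

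The remaining dual-specificity enzymes lay near or below 1 FPKM. Pde3b, which cGMP inhibits, read 1.28 to 1.44 FPKM. Its relative Pde3a lay below the filter at 0.151 to 0.235 FPKM, from 64 to 100 reads, and Pde11a at 0.289 to 0.578 FPKM, from 54 to 102 reads. Pde2a, which cGMP stimulates, read 0.652 to 1.04 FPKM, but this value is uncertain. In GENCODE M21 64.3% of its exon bases also belong to Gm45837, a gene on the same strand that the table lists with at most 2 reads in any library. How the counting treated reads that fit both genes is not given in the sources used here. Adcy3 shares 22.1% of its exon bases with Cenpo on the opposite strand, for which the table holds 95 to 137 reads against at least 1723 for Adcy3, and use of strand is not given either.

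**Figure D2:**
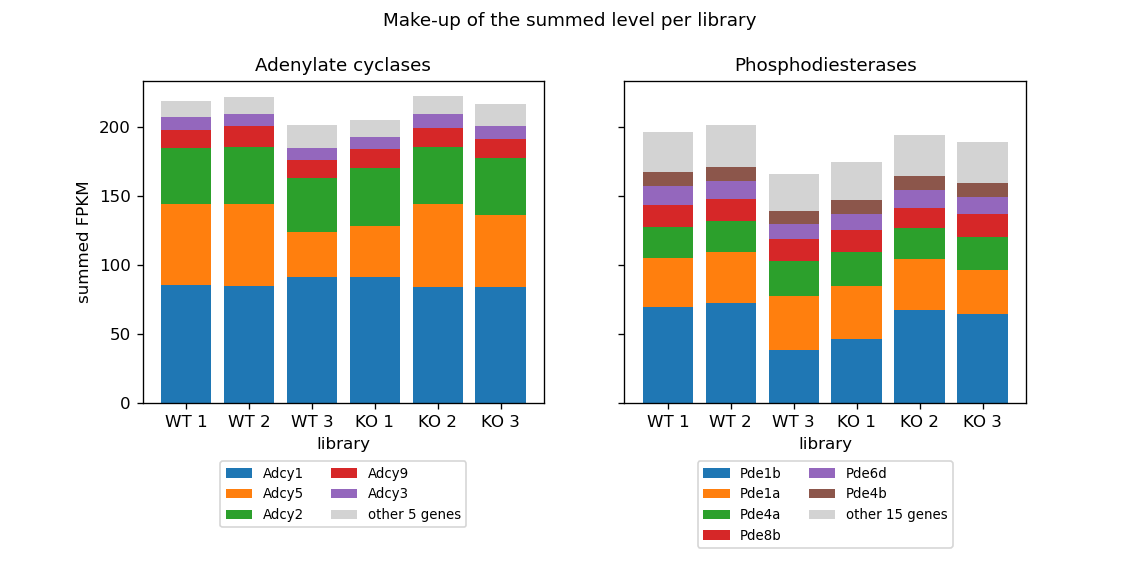
Summed FPKM of the 10 adenylate cyclases (left) and the 21 phosphodiesterases (right) in each library, with the most abundant genes as coloured segments and the rest in grey. Summed cyclase levels ran from 202 to 223 FPKM and summed phosphodiesterase levels from 166 to 202 FPKM. Both were lowest in WT 3 and KO 1, where the Adcy5 and Pde1b segments are shorter.

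Neighbours in the order of levels were compared by their ranges. Between the 10 cyclases 3 of 9 neighbouring pairs overlapped over the 6 libraries: Adcy5 with Adcy2, Adcy3 with Adcy6, and Adcy7 with Adcy4. Between the 21 phosphodiesterases 10 of 20 pairs overlapped, among them Pde1b with Pde1a. The share of Adcy5 in the summed FPKM of the 10 cyclases ran from 16.1 to 27.0%. That of Pde1b in the summed FPKM of the 21 phosphodiesterases, without Pde10a, ran from 23.2 to 35.9%.

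Variation between libraries was uneven across the members. Of the 31 genes, 25 passed a filter of a mean of at least 0.5 FPKM, namely 9 cyclases and 16 phosphodiesterases. Their median SD over the 6 libraries was 0.11 on the log2(FPKM + 0.5) scale, and 0.11 over all 15694 genes that passed. Adcy5 and Pde1b had an SD of 0.39 and 0.37, above 94.0% and 93.6% of all tested genes, and Pde7b 0.24. Without WT replicate 3 and KO replicate 1, the lowest libraries of these genes, the SDs were 0.096, 0.072 and 0.041. The libraries were picked for their low values, so the drop follows from the choice and is no separate result. On this scale Adcy2, Pde4b and Pde3b had the smallest SDs, at 0.041, 0.043 and 0.045. The added 0.5 FPKM shrinks the SD of genes at low levels. Pde3b, at 1.28 to 1.44 FPKM, is one of these, so its place in this order depends on the scale.

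WT replicate 3 and KO replicate 1 were the 2 lowest libraries for 7 of the 25 genes: Adcy3, Adcy5, Pde1b, Pde1c, Pde2a, Pde6d and Pde7b. The same held for 6.51% of all tested genes. They were the 2 highest libraries for 4 of the 25, Adcy1, Adcy8, Pde1a and Pde4a, and for 6.06% of all. WT replicate 3 and KO replicate 3 were the 2 highest libraries for 5 of the 25 members (Adcy4, Adcy6, Adcy7, Pde4c and Pde7a), beside 13.8% of all tested genes. In WT replicate 3 the level was 0.549 times the mean of the other WT libraries for Adcy5, 0.543 for Pde1b, 0.671 for Pde7b and 0.598 for Pde1c. In KO replicate 1 it was 0.661, 0.701, 0.738 and 0.686 times the mean of the other 2. Striatal projection neuron genes were low in the same libraries, for example Drd2, a dopamine receptor, at 18.6, 20.2 and 4.77 FPKM in WT and 7.59, 18.0 and 15.9 FPKM in KO. With the mean of the striatal list as a covariate, the log2 fold changes between the genotypes (KO minus WT) were -0.020 for Adcy5 and -0.017 for Pde1b, beside 0.014 and 0.015 without it.

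**Figure D3:**
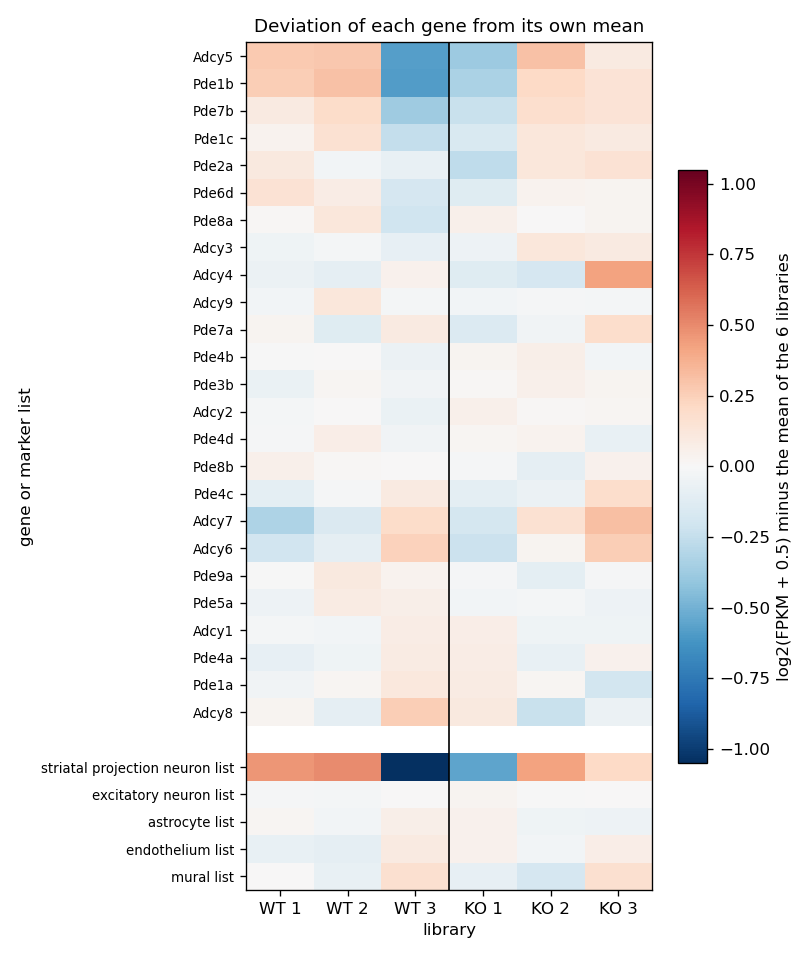
Deviation of each of the 25 tested genes, and of 5 marker lists, from its own mean over the 6 libraries, in log2(FPKM + 0.5); red is above and blue below the mean, and the vertical line separates WT from KO. Adcy5, Pde1b and Pde7b share their 2 low libraries with the striatal projection neuron list, which stands at -1.04 in WT 3 and -0.55 in KO 1.

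The comparison of the genotypes asked whether the cortex of Fam69c-/- mice differed in these genes. With limma and Benjamini-Hochberg adjustment over 15694 genes, 0 of the 25 tested members passed an adjusted p of 0.05, each with an adjusted p of 0.999. Over all genes 0 passed (0%). At an unadjusted p under 0.05 there were 0 members, beside 3.82% of all genes (1.63% higher and 2.19% lower in KO), and with voom on the recovered reads 0 members, beside 3.4% of all. The estimates were positive for 15 and negative for 10 members. Their median was 0.014 log2 units, beside -0.0042 over all genes, and the median size without sign was 0.042, beside 0.061 over all genes.

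The group ranges did not overlap for 2 of the 25 members, 1 higher and 1 lower, beside 8.87% of all genes (4.17% higher and 4.7% lower). Adcy2 was higher in all 3 KO libraries, at 41.4 to 42.6 FPKM against 39.1 to 41.3 FPKM in WT, a difference of 0.053 on the log2 scale (95% interval -0.050 to 0.16). Pde9a was lower in all 3, at 4.58 to 4.89 FPKM against 4.92 to 5.35 FPKM, with a log2 fold change of -0.088 and an interval from -0.23 to 0.055. Neither difference passed the test. The smallest unadjusted p among members belonged to Adcy3, whose log2 fold change was 0.10 (95% interval -0.041 to 0.25, limma adjusted p = 0.999).

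The size of difference that these libraries could hide varied by gene. For 15 of the 25 members the 95% interval lay within 0.3 log2 units of 0, among them Adcy1, Adcy2, Adcy9, Pde1a, Pde4a, Pde4b and Pde8b. For Adcy5 it ran from -0.63 to 0.66, and for Pde1b from -0.60 to 0.63, so the data did not exclude differences within these intervals. The largest estimate was that of Adcy7, at 0.19 with an interval from -0.23 to 0.61, and the lowest that of Adcy8, at -0.13 with an interval from -0.42 to 0.16.

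**Figure D4:**
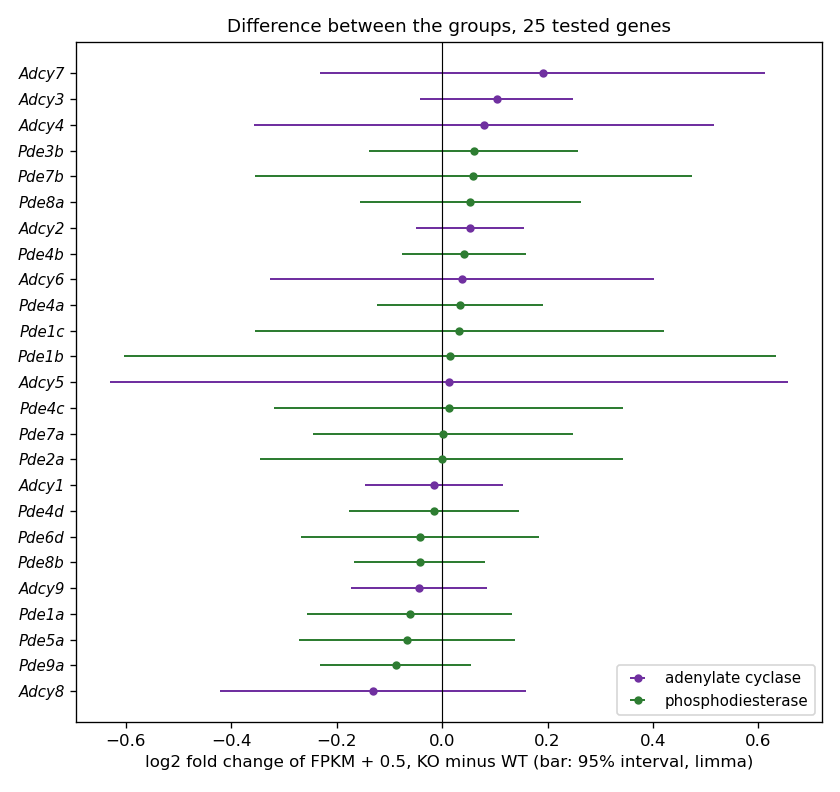
Log2 fold change of FPKM + 0.5, KO minus WT, for the 25 tested genes, with 95% intervals from limma; purple is a cyclase and green a phosphodiesterase. Every interval includes 0, and the widest are those of Adcy5 and Pde1b, from -0.63 to 0.66 and from -0.60 to 0.63.

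The direction for Adcy5 and Pde1b rested on single libraries. Without WT replicate 3 their log2 fold changes were -0.27 and -0.28, without KO replicate 1 0.21 and 0.18, and without both -0.076 and -0.11. Without both libraries, 3 members had an unadjusted p under 0.05, beside 13.3% of all genes. They were Adcy7 at a log2 fold change of 0.47, Adcy6 at 0.29 and Adcy3 at 0.14, with limma adjusted p of 0.280, 0.333 and 0.372. For Adcy7 and Adcy6, WT replicate 3 was the highest WT library (1.76 and 9.62 FPKM). KO replicate 1 was their lowest KO library (1.24 and 6.83 FPKM), so leaving both out by itself widened the difference. Without KO replicate 1 alone, 1 member, Adcy3, had an unadjusted p under 0.05 (log2 fold change 0.16, limma adjusted p = 0.841), beside 5.74% of all genes.

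By functional class, the calcium-stimulated cyclases (3 of 3 tested) had 1 estimate above and 2 below 0, the beta-gamma-stimulated cyclases (3 of 3) had 3 above, and the calcium-inhibited cyclases (2 of 2) had 2 above. Summed FPKM was 97.3 to 104.2 in WT and 96.9 to 103.5 in KO for the calcium-stimulated cyclases, and 42.0 to 66.7 and 43.9 to 68.4 for the calcium-inhibited ones. That of the beta-gamma-stimulated class, nearly all of it Adcy2, was 41.6 to 43.2 in WT and 43.7 to 44.6 in KO. The cAMP-specific phosphodiesterases (8 of 8) had 6 estimates above and 2 below 0, and the Pde1 family (3 of 3) 2 above and 1 below. The first class summed to 67.6 to 68.8 FPKM in WT and 67.1 to 70.7 FPKM in KO, and the Pde1 family to 78.4 to 110.2 and 85.6 to 105.3 FPKM. The cGMP-inhibited class, Pde3a and Pde3b (1 of 2 tested, its estimate above 0), summed to 1.47 to 1.63 FPKM in WT and 1.56 to 1.63 FPKM in KO. The cGMP-specific class (2 of 5 tested) had 2 below 0, and its sum, most of it Pde9a, was 6.50 to 7.15 FPKM in WT and 6.20 to 6.48 FPKM in KO. The sums of the groups thus did not overlap for the 2 classes that Adcy2 and Pde9a lead, the same 2 genes whose own ranges did not overlap, and 8.87% of all single genes did not overlap either. Neither gene passed the test.

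Other genes of the pathway were read from 6 lists. Of 7 tested alpha subunits of G proteins, which couple receptors to the cyclases, 0 passed in limma and 0 had an unadjusted p under 0.05. The same counts held for 9 subunits and inhibitors of protein kinase A, 7 genes of Epac and cyclic nucleotide-gated channels, 8 guanylate cyclases and cGMP-dependent kinases, 7 genes of the CREB family and 9 A-kinase anchors. The smallest unadjusted p in these lists were those of Gucy2g, a guanylate cyclase, at 2.88 ± 0.225 FPKM in WT and 2.40 ± 0.343 FPKM in KO, and Crem, a CREB relative, at 2.54 ± 0.121 and 2.88 ± 0.177 FPKM. Cnga4, a channel subunit, read 0.735 ± 0.0207 and 0.552 ± 0.0852 FPKM. Among the anchors of protein kinase A, Akap12 gave 0.12 on the log2 scale (KO minus WT, interval -0.065 to 0.30). Pkig, a protein kinase A inhibitor, gave -0.11 (interval -0.27 to 0.047). Gnal, the stimulatory alpha subunit of the striatum, was named after its values were seen. It read 44.6, 45.8 and 29.2 FPKM in WT and 31.9, 45.2 and 41.6 FPKM in KO, low in the same 2 libraries as Adcy5.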

How the data were processed

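Cortex RNA of 3 WT libraries and 3 libraries labelled Fam69c knockout (KO) was extracted with Trizol and made into libraries with a TruSeq RNA kit, per the labels' protocols. Bowtie (version not given) and mm10 are named in the submitters' processing notes. For the counting program, the annotation, strand and multiply matched reads, nothing is given in the sources used here. The authors deposited FPKM values per gene, with replicates kept apart. Multiplied by gene length, 100% of the values above 0 came out as whole read numbers (tolerance 0.001), so depth could be recovered. Between 30935326 and 35065884 reads per library set the precision, and genes with few reads are the least certain.

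The files held FPKM and not counts, so limma 3.58.1 (R 4.3.3) was run on log2(FPKM + 0.5) for the 15694 genes whose mean reached 0.5 FPKM. The model had a variance trend, no block and no covariate. Tests were two-sided with Benjamini-Hochberg adjustment over all these genes and a threshold of 0.05, and were checked on simulated data. Groups came from the sample titles. Values with ± are mean and SD. Exon overlaps used GENCODE M21, which gives 29 of the 31 members the deposited start and end. Plots were drawn with matplotlib 3.10.9. Every member was named, with up to 2 genes of smallest p per pathway list. The members, lists and alternatives were chosen with earlier results of these data known. The alternatives varied the pseudocount, the filter, the scaling and the variance model, and tried sample weights, voom, a replicate block, a striatum covariate and leaving out libraries.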

Additional observations from a re-analysis of the deposited data

How the results depend on the processing

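Across the 18 other settings 0 members passed an adjusted p of 0.05, and the lowest adjusted p of any member in limma was 0.280. At an unadjusted p under 0.05 there were 0 members under every setting except the 2 that left out KO replicate 1: 3 without both it and WT replicate 3, and 0 to 1 when single libraries were left out. The median log2 fold change of the members ran from -0.035 to 0.041 when single libraries were left out.

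The sign of the estimate changed in at least 1 setting for 16 of the 25 members and in none for 9. TPM scaling moved the median of all tested genes from -0.0042 to 0.017, and with that shift gave 0.0065 for Adcy1, 0.0041 for Pde4d and 0.013 for Pde2a. Pde2a also gave 0.0014 with a pseudocount of 1, 0.0024 with median-ratio scaling, 0.024 with sample weights, 0.0037 with voom, and 0.093 with WT replicate 3 and KO replicate 1 both left out. Sample weights gave -0.076 for Pde1b, -0.040 for Adcy5 and -0.0086 for Pde8a. The striatum covariate gave -0.017 for Pde1b and -0.020 for Adcy5. Without WT replicate 3 and KO replicate 1, Pde1b gave -0.11, Adcy5 -0.076 and Pde8a -0.049.

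When single libraries were left out, the log2 fold change ran from -0.053 to 0.018 for Adcy1, -0.28 to 0.18 for Pde1b, -0.27 to 0.21 for Adcy5, -0.12 to 0.021 for Pde1a, -0.0021 to 0.086 for Pde4a, -0.068 to 0.0032 for Adcy9, -0.14 to 0.025 for Pde6d, and -0.082 to 0.17 for Adcy6. It ran from -0.036 to 0.13 for Pde8a, -0.11 to 0.19 for Pde7b, -0.088 to 0.074 for Pde7a, -0.039 to 0.022 for Pde4d, -0.075 to 0.13 for Pde2a, -0.11 to 0.19 for Adcy4, -0.076 to 0.066 for Pde4c, and -0.085 to 0.12 for Pde1c.

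With a replicate block 0 members passed and 0 had an unadjusted p under 0.05, and genes with one numbered 837 against 599 without it. The correlation of deviations between libraries of the same number was 0.082, 0.013 and 0.21. WT replicates 1 and 3 correlated best with the KO library of their own number, and WT replicate 2 with KO replicate 1 (0.11). The correlations were low and the labels name no pairs, so the numbers were not taken as pairs. With a filter of 1 FPKM only 21 members were tested. Pde6a had 2 to 12 reads per library, so depth limits the precision of its level.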

Other observations

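Genes with related names or roles fell outside the rule and are given as values. Pde12, a mitochondrial enzyme that is not a cyclic nucleotide phosphodiesterase, had a mean FPKM of 2.41 ± 0.177 in WT and 2.43 ± 0.0755 in KO (SD over 3 libraries). Pde4dip, which encodes the scaffold protein myomegalin, read 13.7 ± 0.568 and 13.7 ± 0.469 FPKM. Adcyap1, the gene of the neuropeptide PACAP, which raises cAMP, read 9.55 ± 0.553 and 10.6 ± 1.56 FPKM, and its receptor gene Adcyap1r1 read 23.1 ± 2.08 and 23.3 ± 1.35 FPKM. None of these 4 passed in limma, each with an adjusted p of 0.999.

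Gucy1a2, a subunit of the guanylate cyclase that senses nitric oxide, stood out among the pathway genes after its values were seen. It read 1.26, 1.17 and 0.249 FPKM in WT and 0.932, 1.27 and 0.332 FPKM in KO. Its low libraries were WT replicate 3 and KO replicate 3, where Adcy6 and Adcy7 were highest. The other subunits did not share this: Gucy1a1 read 12.7 to 14.7 FPKM and Gucy1b1 47.4 to 51.2 FPKM over the 6 libraries.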
